A study of Rattus norvegicus with 4 samples.

Results

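Genes of cholesterol and fatty acid synthesis were examined in the uterus of pregnant rats given the contraceptive ormeloxifene or its vehicle. The list held 43 genes, taken by gene symbol: 29 of a sterol arm and 14 of a fatty acid arm. A probe set with exactly 1 gene symbol was present for 40 of them among the 18166 genes tested, 27 sterol and 13 fatty acid genes. Hmgcs1, Mvk and Fasn were not analysed here. Each of the 40 had 1 probe set, so no choice between probe sets was needed.

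The arrays held total RNA of whole uterus from Sprague Dawley rats aged 10 to 12 weeks, collected before implantation on day 5 of pregnancy. Rats of the first group were fed 1.25 mg per kg of ormeloxifene, prepared in gum acacia, on the first day of pregnancy (2 arrays), and those of the second received only the vehicle (2 arrays). Ormeloxifene, which has no steroid skeleton, acts through the oestrogen receptor as a selective modulator. Arrays are named by group and by replicate number, 1 or 2; the sources used here do not say how many rats contributed to an array, so p-values measure only the spread between these samples. In whole-uterus RNA, fewer cells of a type and less RNA per cell cannot be told apart.

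Cells build cholesterol from acetyl-CoA in a chain of enzymes that passes through mevalonate, farnesyl diphosphate and squalene. When sterols in the endoplasmic reticulum run low, Scap carries the membrane-bound SREBP transcription factors to the Golgi, where they are cut and released to switch on these enzymes, and Insig proteins hold Scap back when sterols are plentiful. SREBP-2, encoded by Srebf2, mainly drives the sterol enzymes, and SREBP-1, encoded by Srebf1, mainly drives fatty acid synthesis. Cholesterol is also a raw material of membranes and, in the ovary, of steroid hormones. Polyunsaturated fatty acids are the source of prostaglandins, which act at implantation.

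No member passed an adjusted p of 0.05 in the reported fit, and the 2 arms showed no common direction. Hsd17b7 passed in 1 of the 13 alternatives: blocking on replicate number without the quantile step gave it an adjusted p of 0.0173 by limma, among 84 genes that passed. In the reported fit by limma with Benjamini-Hochberg adjustment over all genes, 0 of the 40 members passed, as did 0% of all genes tested; the lowest adjusted p of a member was 1.00. At an unadjusted p under 0.05, 2 members were higher with ormeloxifene, Hsd17b7 and Npc2, and 1 was lower, Sqle. The same held for 1.12% (higher) and 1.08% (lower) of all genes, or 203 and 196 genes. That count of 3 members was 0 without ormeloxifene replicate 1, 1 without ormeloxifene replicate 2 and 1 on the values as deposited. A log2 difference of 0.5 or more in size was found in 5 members, Hsd17b7, Sqle, Cyp51, Scd and Npc2, or 12.5% of the 40 against 3.63% of all genes. The members were listed with earlier results of these data known, so these shares are a description only. No member differed by 1 or more. The smallest p that an exact permutation test could give for 1 gene here is 0.333.

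Of the 27 sterol genes, 14 had a higher and 13 a lower mean with ormeloxifene, at a median log2 difference of 0.01. The 13 fatty acid genes divided into 4 higher and 9 lower, at a median of -0.05. Over all genes tested the median was 0.02, with 46.6% of genes lower. Both medians depended on single arrays: without vehicle replicate 1 they were -0.13 for the sterol arm and -0.16 for the fatty acid arm, and the fatty acid median was 0.023 without ormeloxifene replicate 2. With arrays centred on their medians the sterol median was -0.019. Within replicate numbers 1 and 2 the medians had opposite signs, at 0.07 and -0.11 for the sterol arm and 0.07 and -0.16 for the fatty acid arm, as did all genes tested (0.04 and -0.02). The arrays of the groups did not overlap in 6 members on the higher side and 8 on the lower side. That is 15% and 20% of the 40, beside 13.9% and 11.8% of all genes. The half-width of a member's 95% interval was 0.52 at the median, a 1.43-fold difference, before adjustment over all genes. Smaller differences mostly had intervals that held 0. With 2 arrays per group, larger ones could also miss the adjusted threshold, as Hsd17b7 did at 1.92-fold in the reported fit.

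**Figure D1:**
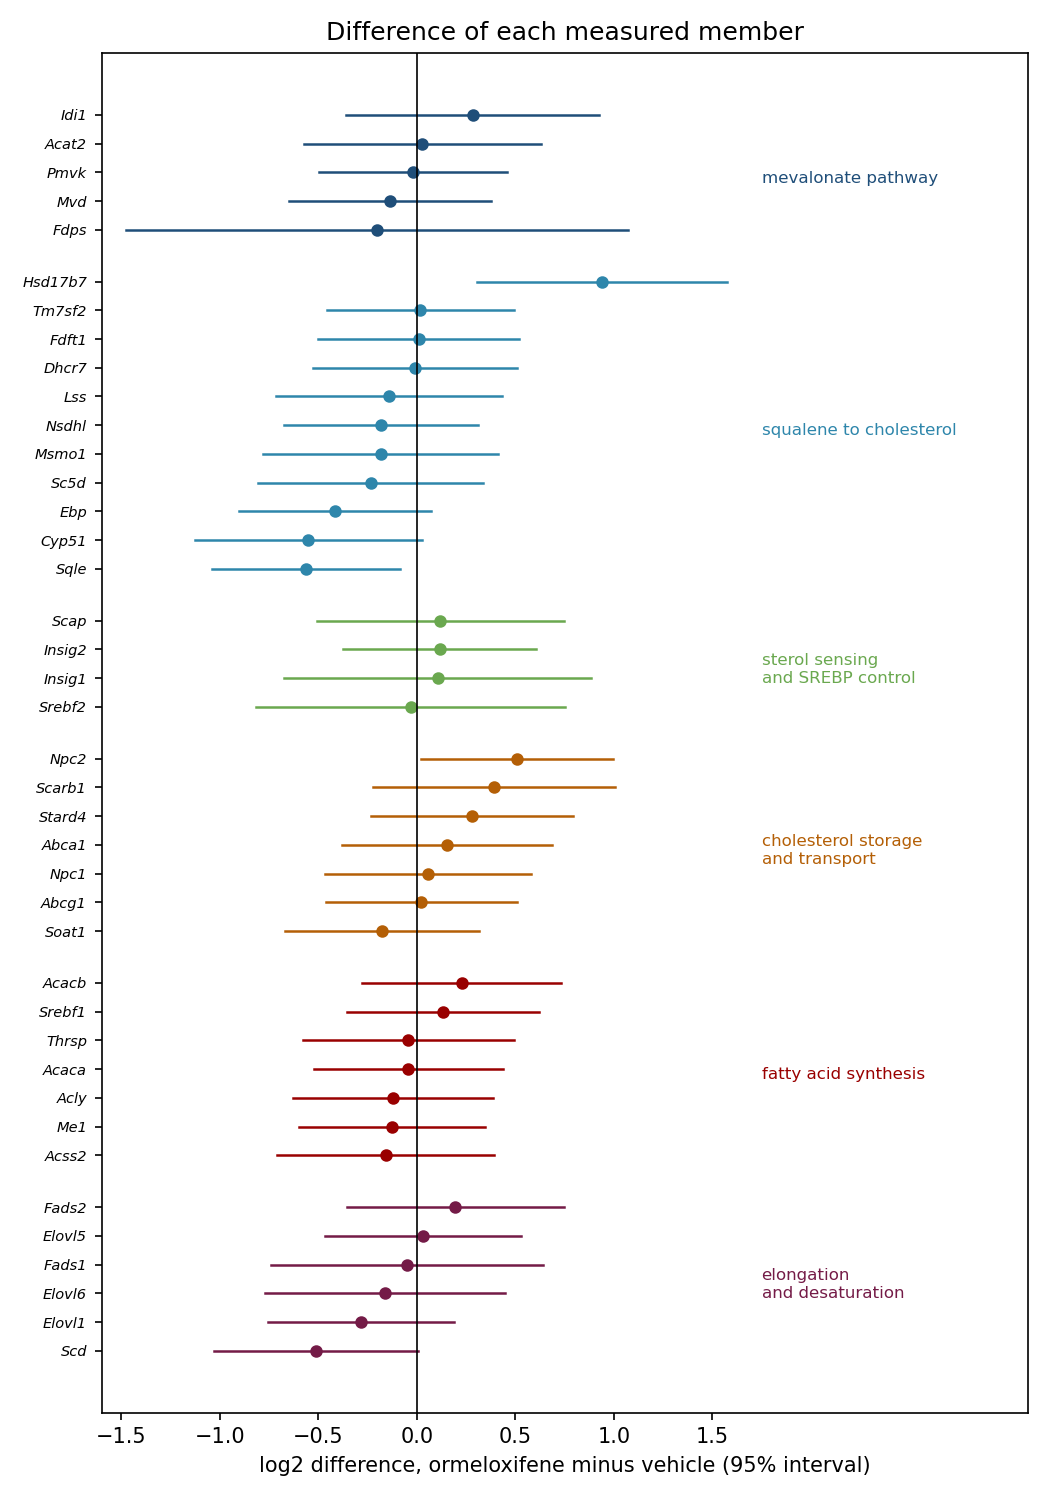
Log2 difference, ormeloxifene minus vehicle, of the 40 measured members by role group; points are the estimates and lines their 95% intervals from limma (2 arrays per group). The intervals of Hsd17b7, Npc2 and Sqle leave out 0 before adjustment, and that of Fdps is the widest, from -1.48 to 1.07.

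The promoters of the members with an absolute difference of at least 0.5 are shown because they stand on opposite sides: Hsd17b7 and Npc2 had higher means with ormeloxifene, Cyp51 and Scd lower means. The sequences are RefSeq's for build GRCr8, from 250 bases before the gene's start to 50 after it, and 32 of the 40 members matched the table; Sqle was not among them. Capitals mark the letters of the NF-Y box (CCAAT, or ATTGG on the other strand) and of the Sp1 GC box (GGGCGG, or CCGCCC on the other strand).
Hsd17b7 (chr13:84722705-84723004, minus strand): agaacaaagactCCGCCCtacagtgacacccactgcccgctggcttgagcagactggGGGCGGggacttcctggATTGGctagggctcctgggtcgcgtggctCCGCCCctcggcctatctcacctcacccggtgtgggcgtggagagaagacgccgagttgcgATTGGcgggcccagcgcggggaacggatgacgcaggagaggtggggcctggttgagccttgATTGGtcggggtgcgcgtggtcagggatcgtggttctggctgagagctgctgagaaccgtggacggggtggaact
Npc2 (chr6:110149196-110149495, minus strand): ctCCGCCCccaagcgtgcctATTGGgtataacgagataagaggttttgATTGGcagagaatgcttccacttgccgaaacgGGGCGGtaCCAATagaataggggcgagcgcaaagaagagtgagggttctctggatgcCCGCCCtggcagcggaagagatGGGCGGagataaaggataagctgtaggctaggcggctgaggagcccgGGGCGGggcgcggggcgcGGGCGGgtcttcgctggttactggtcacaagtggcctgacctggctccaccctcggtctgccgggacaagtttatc
Cyp51 (chr4:30991443-30991742, plus strand): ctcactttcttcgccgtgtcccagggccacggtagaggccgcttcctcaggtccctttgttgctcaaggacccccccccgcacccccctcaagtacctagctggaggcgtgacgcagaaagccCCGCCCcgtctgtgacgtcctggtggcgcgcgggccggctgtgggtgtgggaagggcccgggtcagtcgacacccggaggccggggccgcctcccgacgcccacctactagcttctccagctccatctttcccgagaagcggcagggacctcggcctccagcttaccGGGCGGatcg
Scd (chr1:253231682-253231981, minus strand): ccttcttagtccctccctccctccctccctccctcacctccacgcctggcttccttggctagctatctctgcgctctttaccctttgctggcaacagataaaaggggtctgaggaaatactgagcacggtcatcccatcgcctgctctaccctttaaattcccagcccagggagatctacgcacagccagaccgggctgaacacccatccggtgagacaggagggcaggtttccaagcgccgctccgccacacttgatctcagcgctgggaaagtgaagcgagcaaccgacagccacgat

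The Hsd17b7 window held 3 NF-Y boxes, which began 176, 86 and 25 bases before the start, and 3 GC boxes. The Npc2 window held 3 and 6. Cyp51 had 0 NF-Y boxes and 2 GC boxes, and the Scd window had none of either. Other members had the reverse order: Nsdhl and Msmo1, with lower means, held 5 and 3 NF-Y boxes. Scap and Abca1, with higher means, held 0. A link between boxes and direction was not tested. NF-Y and Sp1 are general factors that work beside SREBP at sterol genes. Across the 32 promoters, 68.8% held an NF-Y box and 78.1% a GC box, against 37.7% and 34.9% of the 27457 genes in the table (the first listed start of each). The letters TCACNCCAC, a core of the sterol regulatory element, were in 0 of the 32 windows and in 1.13% of all. No 2 motifs overlapped in the 4 windows shown. A match is a description of letters, and its absence says only that these letters are not in the window.

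The enzymes from squalene to cholesterol held the members with the most separated arrays. Of the 11 measured, 3 were higher and 8 lower with ormeloxifene, at a median of -0.18, beside 46.6% of all genes with a lower mean. At an unadjusted p under 0.05 by limma, 1 was higher and 1 lower, beside 1.12% and 1.08% of all genes. Hsd17b7 encodes the ketosteroid reductase that acts in the removal of the methyl groups of lanosterol; the same enzyme can reduce oestrone to oestradiol. Its log2 signal was 5.88 and 5.78 with vehicle and 7.12 and 6.42 with ormeloxifene. Both ormeloxifene arrays lay above both vehicle arrays, replicate 1 further than replicate 2. The difference was 0.94 ± 0.27 (± the standard error by limma, as for every difference, with 2 arrays per group), or 1.92-fold, with a 95% interval of 0.30 to 1.57 and an unadjusted p of 0.00949 by limma. It ranked 81st by p among all genes tested. Within replicate number 1 and number 2 it was 1.25 and 0.63. It was 0.59 without ormeloxifene replicate 1 and 1.29 without ormeloxifene replicate 2.

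Sqle encodes squalene epoxidase, which adds the first oxygen to the sterol skeleton and is a rate-limiting step after mevalonate. Its signal was 7.23 and 7.09 with vehicle and 6.62 and 6.58 with ormeloxifene. The arrays of each group stood close together and did not overlap with the other group. The difference was -0.56 ± 0.20, 1.48-fold lower with ormeloxifene, with an interval of -1.04 to -0.09 (unadjusted p = 0.0264 by limma), and -0.61 and -0.51 within the numbers. Without any 1 array it ran from -0.63 to -0.49.

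Cyp51, the lanosterol demethylase, had signals of 6.46 and 6.97 with vehicle and 6.05 and 6.27 with ormeloxifene. The groups did not overlap, although the higher ormeloxifene array came close to the lower vehicle array. Its difference was -0.55 ± 0.25 (-1.13 to 0.03), and without 1 array it ran from -0.81 to -0.29. Ebp encodes a sterol isomerase that, with Dhcr7, forms the microsomal site known to bind tamoxifen and related antioestrogens. Its signals were 8.02 and 7.88 with vehicle and 7.46 and 7.62 with ormeloxifene, lower in both ormeloxifene arrays, at a difference of -0.41 ± 0.21. For Dhcr7, the reductase that makes cholesterol from its dehydro precursor, the difference was -0.01 ± 0.22 (-0.53 to 0.51) and the arrays of the groups overlapped.

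The remaining 6 enzymes of this stretch differed by between -0.23 and 0.02. The means were lower for Sc5d, the lathosterol desaturase (-0.23 ± 0.24), for Msmo1, the methylsterol oxidase (-0.18 ± 0.26), and for Nsdhl, the decarboxylating dehydrogenase that acts just before Hsd17b7 (-0.18 ± 0.21). Lss, the lanosterol synthase that closes the rings, differed by -0.14 ± 0.25. Squalene synthase, Fdft1, and the sterol reductase Tm7sf2 were close to level, at 0.01 and 0.02, with intervals of -0.50 to 0.52 and -0.46 to 0.49. Only Nsdhl among these 6 had groups that did not overlap, beside 11.8% of all genes on the lower side. Hsd17b7 had the opposite sign to its neighbours Nsdhl and Msmo1 in the same demethylation steps. The intervals of Nsdhl and Msmo1 held 0, and the sign of Msmo1 turned without 1 array. The difference between these genes was not tested.

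**Figure D2:**
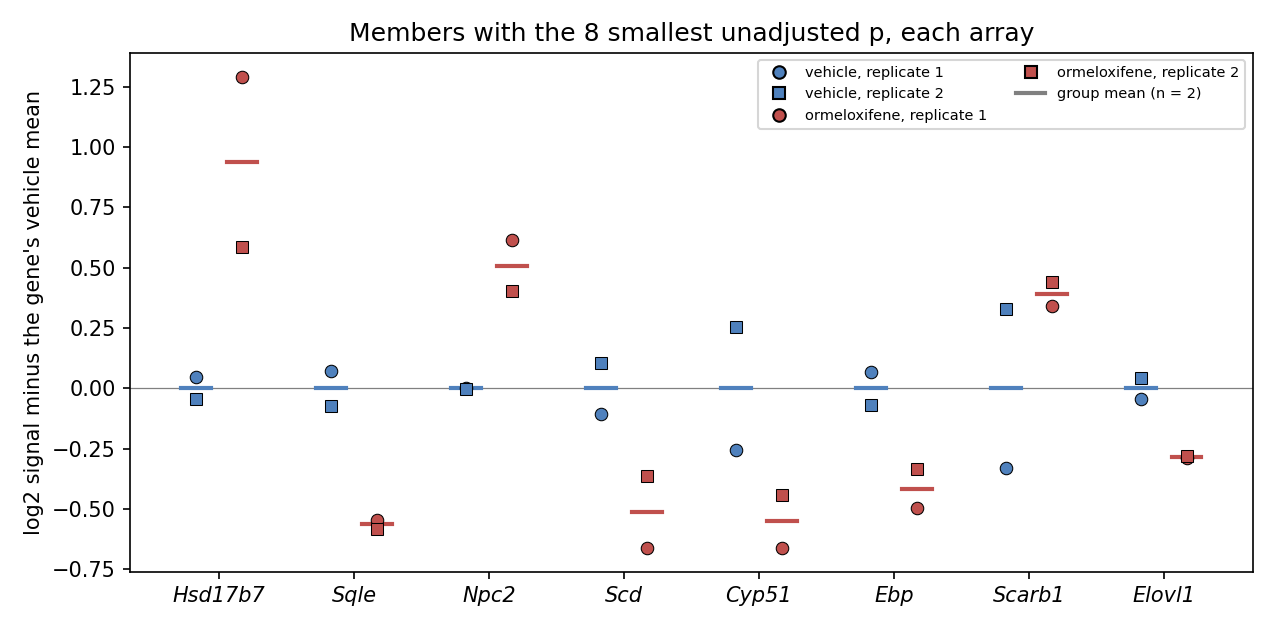
Log2 signal of each array minus the gene's own vehicle mean, for the members with the 8 smallest unadjusted p; circles are replicate 1, squares replicate 2, and bars the group means (n = 2). The ormeloxifene arrays lie above both vehicle arrays for Hsd17b7, Npc2 and Scarb1 and below both for Sqle, Scd, Cyp51, Ebp and Elovl1.

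Enzymes of the mevalonate pathway, which make farnesyl diphosphate from acetyl-CoA, had 2 higher and 3 lower means among the 5 measured, 0 of them at an unadjusted p under 0.05 (limma; the lowest was 0.333) and 0 with separated groups. Idi1, the isopentenyl diphosphate isomerase, had signals of 8.48 and 9.00 with vehicle and 8.77 and 9.29 with ormeloxifene. The replicate 2 arrays were the higher in both groups. Its difference was 0.29 ± 0.28, and 0.29 and 0.28 within the numbers. It was 0.027 without ormeloxifene replicate 2 and 0.026 without vehicle replicate 1, and 0.54 without either of the others.

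Fdps encodes farnesyl diphosphate synthase, whose product feeds both sterols and protein prenylation. Its signals were 6.72 and 8.47 with vehicle and 6.94 and 7.85 with ormeloxifene. The 2 vehicle arrays were the lowest and the highest of the 4. The difference between the groups was -0.20 ± 0.55, with opposite signs within the numbers (0.22 and -0.62), and without 1 array it ran from -1.08 to 0.67.

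Mvd, which decarboxylates mevalonate diphosphate, had 6.63 and 6.71 with vehicle and 6.70 and 6.37 with ormeloxifene (-0.14 ± 0.22). For Acat2, the cytosolic thiolase of the first step, the signals were 5.79 and 6.26 with vehicle and 6.26 and 5.85 with ormeloxifene. The 2 highest Acat2 arrays belonged to different groups, at a difference of 0.03 ± 0.26. Phosphomevalonate kinase, Pmvk, differed by -0.02 ± 0.20.

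The sterol sensing genes showed no separation between the groups: 3 of 4 had higher means with ormeloxifene, between -0.03 and 0.12, and all 4 overlapped. Srebf2 encodes SREBP-2, the main activator of the sterol enzymes. Its signals were 7.19 and 8.01 with vehicle and 7.24 and 7.90 with ormeloxifene. Both replicate 2 arrays were above both replicate 1 arrays, and the group difference was -0.03 ± 0.34 (-0.82 to 0.75). Insig1, a retention factor that is itself a target of SREBP, followed the same order of arrays at 6.32 and 7.27 with vehicle and 6.69 and 7.11 with ormeloxifene. Its difference was 0.11 ± 0.34 (-0.68 to 0.89), 0.38 and -0.16 within the numbers.

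Insig2, the second retention factor, had signals of 7.22 and 7.43 with vehicle and 7.39 and 7.50 with ormeloxifene, a difference of 0.12 ± 0.21. Scap, the escort of SREBP, had 8.24 and 8.03 with vehicle and 8.59 and 7.92 with ormeloxifene. Its replicate 1 arrays were the higher, and the difference was 0.12 ± 0.27.

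Of the 7 genes of cholesterol storage and transport, 6 had higher means with ormeloxifene and 1 a lower mean, at a median of 0.15, beside 53.4% of all genes with a higher mean. Within both replicate numbers 4 of the 7 were higher, and the signs of Abca1, Npc1 and Abcg1 turned without 1 array, that of Abcg1 also with centred arrays. At an unadjusted p under 0.05 by limma there was 1, Npc2, beside 1.12% of all genes on the higher side. Npc2 encodes the lysosomal protein that binds cholesterol freed from lipoproteins and hands it to Npc1 in the membrane. Its signals were 9.95 and 9.95 with vehicle and 10.56 and 10.35 with ormeloxifene. The vehicle arrays were level and both ormeloxifene arrays lay above them, at a difference of 0.51 ± 0.21 or 1.42-fold (0.02 to 0.99; unadjusted p = 0.042 by limma). Within the numbers it was 0.61 and 0.41. Npc1 itself differed by 0.06 ± 0.22, with arrays that overlapped. Macrophages are rich in lysosomes: of 9 macrophage markers 7 had higher means, at a median of 0.12 and an array mean from 7.42 to 7.51 with vehicle and from 7.52 to 7.56 with ormeloxifene, and their part in the Npc2 value was not tested.

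Scarb1, the receptor that takes up cholesterol esters from high-density lipoprotein, had signals of 8.32 and 8.98 with vehicle and 8.99 and 9.10 with ormeloxifene. The ormeloxifene arrays were above both vehicle arrays, but vehicle replicate 2 was only slightly below them, so the difference of 0.39 ± 0.26 was 0.06 without vehicle replicate 1. Stard4, a cytosolic sterol carrier, had 5.23 and 5.59 with vehicle and 5.68 and 5.70 with ormeloxifene, a difference of 0.28 ± 0.22 that ran from 0.10 to 0.46 without 1 array. Soat1, which esterifies cholesterol for storage, was the lower one, at 7.69 and 7.93 with vehicle and 7.65 and 7.62 with ormeloxifene (-0.18 ± 0.21). The exporter Abca1, which loads cholesterol onto apolipoprotein, had 8.51 and 8.12 with vehicle and 8.55 and 8.39 with ormeloxifene. Its groups overlapped, at a difference of 0.15 ± 0.23, and the second exporter Abcg1 differed by 0.02 ± 0.21.

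In the fatty acid arm, the group of fatty acid synthesis enzymes and their regulators Srebf1 and Thrsp had 2 higher and 5 lower means of 7, with differences between -0.16 and 0.23, 0 at an unadjusted p under 0.05 (limma; lowest 0.327). Srebf1, which encodes SREBP-1, had signals of 6.49 and 6.53 with vehicle and 6.75 and 6.54 with ormeloxifene. The ormeloxifene array of replicate 2 was all but level with the higher vehicle array, and the difference was 0.13 ± 0.21, from 0.026 to 0.24 without 1 array. Acacb, the carboxylase form tied to mitochondria, had 5.42 and 5.73 with vehicle and 5.85 and 5.76 with ormeloxifene, again barely separated, at 0.23 ± 0.22 and from 0.075 to 0.38 without 1 array. Its cytosolic counterpart Acaca, which commits carbon to fatty acid synthesis, differed by -0.04 ± 0.21.

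Acss2, which activates acetate, had signals of 8.25 and 8.59 with vehicle and 8.09 and 8.43 with ormeloxifene. Its replicate 2 arrays were the higher ones, and the difference was -0.16 ± 0.24. Malic enzyme, Me1, a source of NADPH, had 6.28 and 6.36 with vehicle and 6.19 and 6.19 with ormeloxifene. Its ormeloxifene arrays were below both vehicle arrays by a narrow margin (-0.13 ± 0.20). Acly, which splits citrate into acetyl-CoA, differed by -0.12 ± 0.22 and the lipogenic regulator Thrsp by -0.04 ± 0.23.

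Among the 6 genes of elongation and desaturation, 2 means were higher and 4 lower. Scd, the stearoyl-CoA desaturase that makes oleate, had signals of 7.44 and 7.66 with vehicle and 6.89 and 7.19 with ormeloxifene. Both ormeloxifene arrays lay below both vehicle arrays, at a difference of -0.51 ± 0.22, 1.43-fold lower (-1.03 to 0.01; unadjusted p = 0.0523 by limma). Within the numbers it was -0.56 and -0.47. Its close paralogue Scd2, whose sequence is similar enough that probes may not fully separate the pair, differed by -0.06 ± 0.20 (-0.53 to 0.41). Elovl1, which extends very long saturated chains, had 11.15 and 11.23 with vehicle and 10.90 and 10.91 with ormeloxifene, with groups that did not overlap and a difference of -0.28 ± 0.20.

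Fads2 and Fads1 are the desaturases of the path to arachidonic acid, the precursor of prostaglandins. Fads2 had 9.19 and 9.00 with vehicle and 9.51 and 9.06 with ormeloxifene. Its groups overlapped, at a difference of 0.20 ± 0.24, and Fads1 differed by -0.05 ± 0.30 with opposite signs within the numbers (0.22 and -0.32). Elovl6, which extends palmitate, had 6.78 and 7.22 with vehicle and 6.60 and 7.07 with ormeloxifene. Its replicate 2 arrays were the higher ones in both groups (-0.16 ± 0.26), and Elovl5, which extends polyunsaturated chains, differed by 0.03 ± 0.21.

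**Figure D3:**
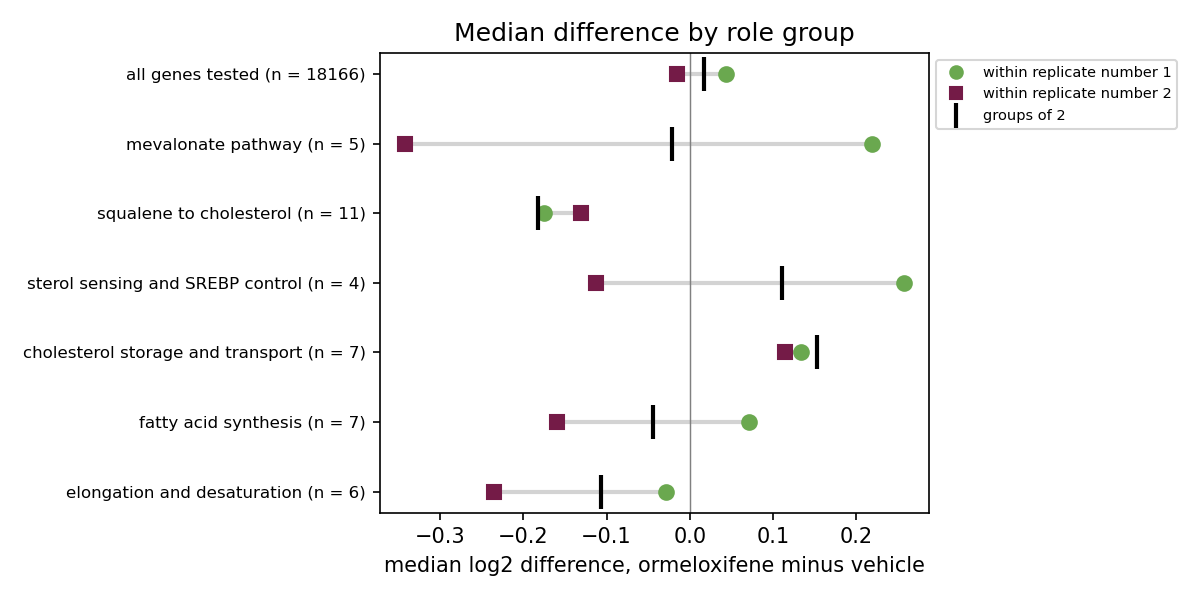
Median log2 difference, ormeloxifene minus vehicle, of all genes tested and of each role group; circles and squares give it within replicate number 1 and 2, and black bars for the groups of 2 arrays. The squalene to cholesterol group was at -0.18 and -0.13 and storage and transport at 0.13 and 0.11, and elongation and desaturation at -0.03 and -0.23, while the medians of 3 groups changed sign: mevalonate at 0.22 and -0.34, sterol sensing at 0.26 and -0.11 and fatty acid synthesis at 0.07 and -0.16.

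For many members the arrays differed more by replicate number than by treatment. Exactly equal deposited values occurred 1039 times between arrays of the same number and 0 times in the 4 other pairs. The number was therefore used as a block that held both groups, and the labels do not say what it marks. The difference between the numbers was larger than that between the treatments in 23 of the 40 members (57.5%) and in 63.9% of all genes. It was at least 0.5 in size in 5 members. Fdps (1.33), Srebf2 (0.74), Insig1 (0.69) and Idi1 (0.52) were higher in number 2, and Fads1 (-0.53) was lower; such a size was found in 14.1% of all genes. These 4 sterol genes were singled out after their values were seen.

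With the number as a replicate block in limma, an unadjusted p under 0.05 was reached by 2 members on the higher side and 4 on the lower side, and by 3.74% and 3.02% of all genes. The 6 were Hsd17b7 (unadjusted p = 0.00132), Npc2 (0.0161), Sqle (0.00897), Cyp51 (0.0123), Scd (0.0143) and Ebp (0.0424). The lowest adjusted p of a member was 0.333, that of Hsd17b7, so 0 members passed over all genes. On the values as deposited the same block gave Hsd17b7 an adjusted p of 0.0173 by limma, and 1 member passed.

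**Figure D4:**
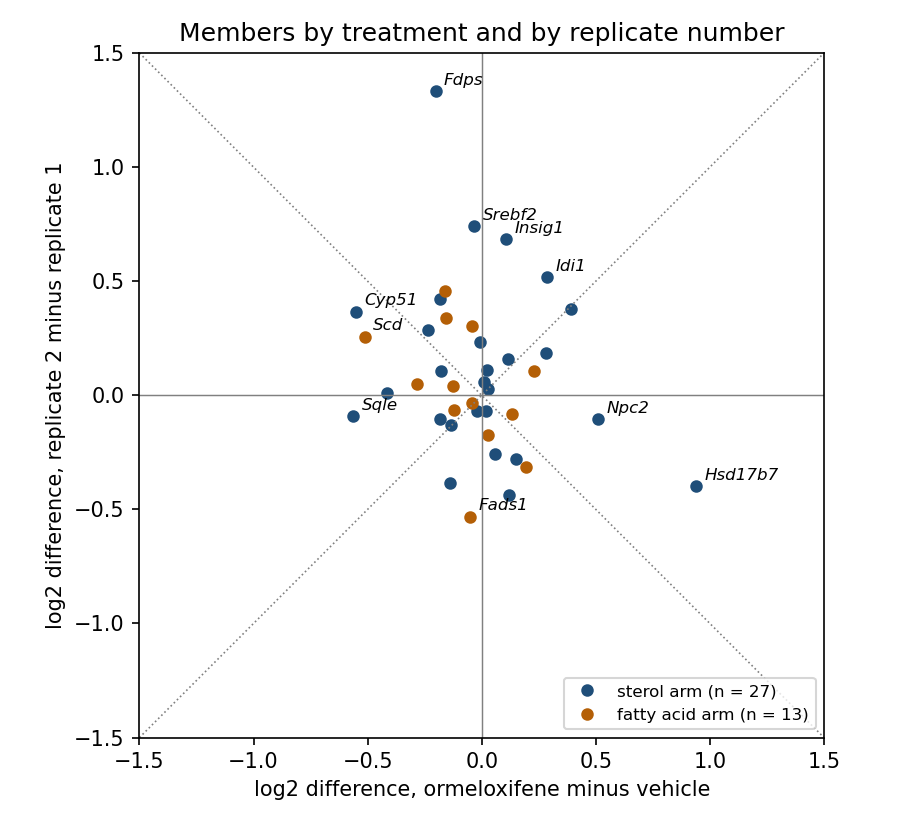
Log2 difference between treatments (horizontal) against that between replicate numbers (vertical) for the 40 measured members; dotted lines mark equal size. Hsd17b7, Npc2, Sqle, Scd and Cyp51 lie nearer the horizontal axis, and Fdps, Srebf2 and Insig1 nearer the vertical one.

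Of 29 further sterol genes measured, 12 were higher and 17 lower, at a median of -0.01, and 0 passed the threshold after adjustment. Beside 1.08% of all genes on the lower side, 1 of the 29 was lower at an unadjusted p under 0.05 by limma. That gene was Tmem97, an endoplasmic reticulum protein that binds sterols and Npc1, at 7.60 and 7.38 with vehicle and 6.91 and 6.48 with ormeloxifene (-0.80 ± 0.24; unadjusted p = 0.0107 by limma). Its ormeloxifene arrays were both lower. The next by p were Lcat, the plasma enzyme that esterifies cholesterol (-0.48 ± 0.22), and Cyb5r3, a reductase that passes electrons to sterol and fatty acid enzymes (0.54 ± 0.25).

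Of 39 further fatty acid genes, 23 were higher and 16 lower, at a median of 0.04, and 0 passed the threshold after adjustment. Beside 1.08% of all genes on the lower side, 1 of the 39 was lower at an unadjusted p under 0.05 by limma. This was the lipid droplet protein Pnpla3, at 6.15 and 6.36 with vehicle and 5.70 and 5.76 with ormeloxifene (-0.52 ± 0.21; unadjusted p = 0.0381 by limma). Cpt1a, which admits fatty acids to mitochondria for oxidation, differed by 0.43 ± 0.21, and Hsd17b12, a reductase of the elongation cycle, by -0.43 ± 0.22.

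Markers of other cells that hold these pathways were read beside the members. Steroid-making ovarian cells use much cholesterol: of their 7 markers 6 had higher means, at a median of 0.04, beside 53.4% of all genes. These markers were dim, with a median at percentile 19.9 of mean signal. Inha, the brightest at percentile 46.1, had the lower mean (-0.30 ± 0.24). Cyp11a1, the defining side-chain cleavage enzyme, differed by 0.04 ± 0.21. Adipocytes are rich in fatty acid enzymes: 7 of 10 markers had higher means, at a median of 0.15, with adiponectin (Adipoq) at 0.27 ± 0.23. Plin4 (0.41 ± 0.26), Lipe (0.29 ± 0.22) and Plin1 (0.27 ± 0.20) were also higher in both ormeloxifene arrays. Lep (0.20), Cfd (0.10) and Fabp4 (0.10) had higher means with arrays that overlapped. The adipocyte marker with the smallest p, Car3, was lower in both ormeloxifene arrays (-0.38 ± 0.23; unadjusted p = 0.149 by limma), and the means of Retn (-0.12) and Cidec (-0.02) were also lower. Among the 13 fatty acid members, 9 had lower means, beside 46.6% of all genes. The part of ovarian cells and adipocytes in the members' values was not tested.

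The table held no detection call or background signal, so the presence of the labelled tissue's cells was not tested. Epithelial markers were lower in 8 of 12, at a median of -0.17, with Elf3 at an unadjusted p of 0.0492 by limma (-0.48 ± 0.21). Stromal markers were level at a median of 0.03 (5 of 10 higher). Smooth muscle markers were higher in all 8 measured, at 0.28, and endothelial markers in all 6 measured, at 0.18. All 16 proliferation genes had lower means with ormeloxifene, at a median of -0.47, beside 46.6% of all genes with a lower mean. Kif20a, Cdk1, Ccna2, Top2a and Pcna among them were at an unadjusted p under 0.05 by limma, beside 1.08% of all genes on the lower side. The array mean of the 16 was 6.59 and 7.18 with vehicle and 6.36 and 6.49 with ormeloxifene; the part of proliferating or epithelial cells in the members' values was not tested.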

How the data were processed

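Total RNA, 100 ng per array according to the labels' protocols, was extracted with Trizol and turned into biotin-labelled single-stranded DNA for Affymetrix whole-transcript arrays. The authors deposited log2 values for 36685 probe sets on each of 4 arrays, made with Affymetrix Expression Console per the submitters' processing notes; the sources used here name no version, summary method or genome build. The scale was read from the values, and column medians of 5.67 to 5.93 showed no shared distribution, so the values were quantile normalized over all probe sets. Platform annotation gave 1 gene symbol for 18511 probe sets and several for 575; the brightest probe set of a gene was kept, leaving 18166 genes.

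Differences (ormeloxifene minus vehicle, with SE) came from limma 3.58.1 in R 4.3.3, 2-sided, with Benjamini-Hochberg adjustment over all genes at 0.05 and 7.55 degrees of freedom after moderation. The fit was tested on simulated data with each gene's own spread within groups, which included the shift between replicate numbers. Noise was drawn independently for each array. The fit passed a check that nearly all directions put in were returned. None of the changes about as large as that of Hsd17b7 passed the adjusted threshold there. The number of arrays limits the precision.

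Members and lists were chosen with earlier results of these data known. Values of every array are given for the 4 members of smallest p in each of 6 role groups and for Srebf1, Srebf2, Insig1, Sqle, Scd and Abca1; of further pathway genes the 3 of smallest p per arm are named. Alternatives were other scaling, the replicate number as a block, other probe set rules, a filter on dim genes, moderated variance with trend, updated symbols, and leaving out each array.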

Additional observations from a re-analysis of the deposited data

How the results depend on the processing

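Over the 13 alternatives, the 40 members' differences kept their sign in 36 members when no array was left out and in 16 when any 1 array was left out. Leaving out 1 array makes 1 group a single array, which is then assumed to vary like the other group. Fdft1 was -0.0022 on the values as deposited, with or without the replicate block, and -0.023 with arrays centred on their medians. Elovl5 was -0.020, likewise with or without the block, and -0.041. Pmvk was 0.0012 as deposited, with or without the block, and Abcg1 -0.0076 with centred arrays. In the members whose sign turned without an array, the range over the 4 omissions was as follows. The difference of Abca1 from -0.046 to 0.35, Abcg1 from -0.087 to 0.13, Acaca from -0.12 to 0.030, Acat2 from -0.21 to 0.27, Acly from -0.26 to 0.023 and Acss2 from -0.33 to 0.012. That of Dhcr7 from -0.19 to 0.17, Elovl5 from -0.10 to 0.16, Elovl6 from -0.40 to 0.075, Fads1 from -0.45 to 0.35, Fads2 from -0.029 to 0.42 and Fdft1 from -0.13 to 0.15. That of Fdps from -1.08 to 0.67, Insig1 from -0.37 to 0.58, Lss from -0.35 to 0.070, Msmo1 from -0.44 to 0.076, Mvd from -0.30 to 0.031 and Npc1 from -0.12 to 0.24. That of Pmvk from -0.093 to 0.051, Sc5d from -0.51 to 0.036, Scap from -0.21 to 0.45, Srebf2 from -0.44 to 0.38, Thrsp from -0.19 to 0.11 and Tm7sf2 from -0.046 to 0.084.

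At the adjusted threshold, 0 genes passed in the reported fit by limma, 399 being at an unadjusted p under 0.05. The count was 1 with centred arrays or averaged probe sets, 4 without the dimmest genes (lowest 25% by mean signal) or with trend and robust moderation, 5 with the replicate block, 84 with the block and deposited values, and 0 to 3 without 1 array. Members among them were 0, except 1 with the block and deposited values: Hsd17b7 (adjusted p = 0.0173 by limma, and from 0.333 to 1.00 in the other settings). Members at an unadjusted p under 0.05 numbered 3 in the reported fit, 1 on the values as deposited, 6 with the replicate block, 5 with the block and deposited values, without dim genes or with trend and robust moderation, and 0 to 3 without 1 array. The median difference ran from -0.13 to 0.024 for the sterol arm and from -0.16 to 0.023 for the fatty acid arm without 1 array. No signal over background was part of the table, so what dimness hides could not be measured. At the adjusted threshold, the replicate block changed no other call on members. Before adjustment, on the quantile-normalized values, it added Cyp51, Scd and Ebp to the members under 0.05. Besides the shared equal values, arrays of the same number correlated over genes at 0.980 and 0.983. Arrays of the same group did so at 0.973 and 0.963, and the other pairs at 0.968 and 0.964. The pairing by number remains a hint from the data.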
